A study of Homo sapiens with 15 samples.

Results

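Culture experiments 3 and 4 were set against culture experiments 5 and 6 in a small RNA sequencing study of human cells. The experiments were chosen from the counts themselves, because they form the ends of the second principal component, the second main axis of variation between libraries. They hold 12 of the 15 libraries of the series, 6 for each pair of experiments. The contrast between the pairs is therefore a description, with no test, and the tests given further on concern the treatments within each pair.

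The study asked how small RNAs respond to lipids that lipoprotein lipase (LPL) releases from very low-density lipoprotein (VLDL), and to inhibition of NADPH oxidases. All libraries came from cells labelled HEK-293, an embryonic kidney line of wild-type genotype, incubated for 18 h and given VLDL in some form, so that no group without lipoprotein was included. The groups were VLDL (titled pcDNA:VLDL, with no statement of what pcDNA was), LPL:VLDL, which is VLDL lipid hydrolysis products made by LPL, and GKT136901 + LPL:VLDL, the same products with 20 µM GKT136901, an inhibitor of NOX1 and NOX4. In each pair of experiments, each of the 3 groups had 2 libraries, 1 from each experiment. The labels call the experiment a batch and do not say what differed between batches.

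The title of the series speaks of macrophages, and the defining mRNAs were checked. Of 18 mRNAs typical of HEK-293 cells, 7 had no count in the 12 libraries, and the sum of all 18 was 0.317 to 1.66 CPM (counts scaled to the same total in each library) in experiments 3 and 4 and 0.831 to 2.65 CPM in 5 and 6. Of 18 myeloid mRNAs, 2 (AIF1 and MRC1) had no count, and the sum was 28.4 to 40.3 CPM in experiments 3 and 4 and 31.4 to 57.4 CPM in 5 and 6. CSF1R, a growth factor receptor of macrophages, had 493 counts in experiments 3 and 4 and 560 in 5 and 6. In both pairs, fragments of HEK-293 mRNAs were thus near 0 and those of myeloid mRNAs were present.

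Total counts per library ran from 5076917 to 9757123 in experiments 3 and 4 and from 8420870 to 9619561 in 5 and 6. The GKT136901 + LPL:VLDL library of experiment 3 was the shallowest. The LPL:VLDL library of experiment 3 stood apart in composition, with 65.9% of its counts on C/D snoRNAs against 54.1% to 60.05% in the other 5 libraries of its pair. The miRNA and C/D snoRNA shares, the snoRNA medians and the differences of SNORD116-2, SNORD35A and SCARNA20 are given with and without it. Other genes moved as well and are given only with it. The first component, 17.6% of the variance, set experiment 2 apart. On the second, 13% of the variance, 12 of 12 libraries lay on their pair's side of 0.

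**Figure D1:**
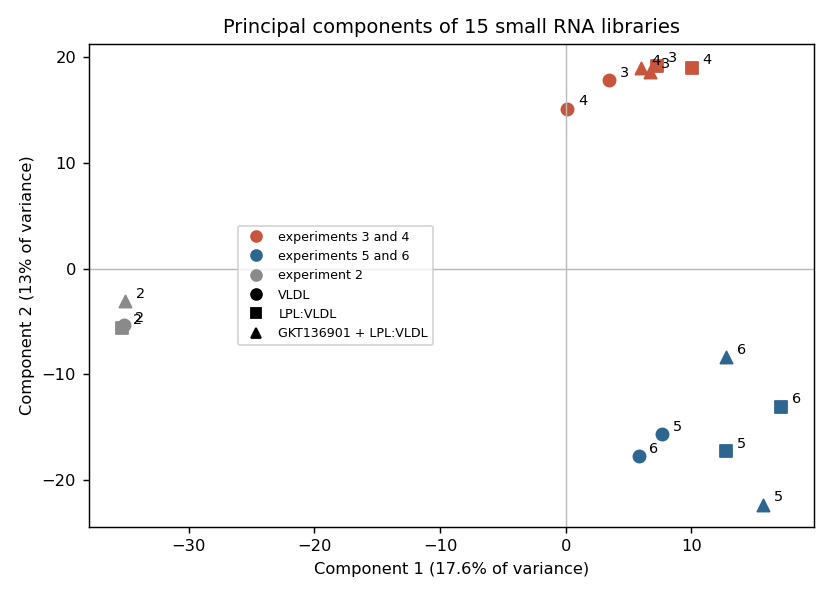
Principal components of log2 CPM in 15 libraries; the axes give component 1 (17.6% of the variance) and component 2 (13%), colours the experiments, shapes the treatments and digits the experiment number. The 6 libraries of experiments 3 and 4 lie above 0 and the 6 of experiments 5 and 6 below 0 on component 2, which is the axis the contrast was chosen from.

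MicroRNAs (miRNAs) are cut from hairpin precursors and pair with mRNAs through a seed at bases 2 to 8, lowering their translation and stability. C/D snoRNAs carry a C box and a D box and guide 2′-O-methylation of ribosomal RNA, while H/ACA snoRNAs guide pseudouridylation. Transfer RNA (tRNA), mitochondrial transcripts, Y RNAs and mRNAs enter such libraries as short molecules or fragments.

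The mature sequences of 10 of the miRNA genes described next are shown first, chosen for their abundance, size of difference or shared locus. They are not the 10 largest differences. For each gene 1 arm is given, because the counts are per precursor gene and do not tell the arms apart. They come from RefSeq (GRCh38.p14), the capitals mark the seed, and the first 5 belong to genes higher in experiments 3 and 4 and the last 5 to genes higher in 5 and 6.
hsa-miR-100-5p: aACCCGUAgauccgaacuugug
hsa-miR-125b-5p: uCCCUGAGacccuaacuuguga
hsa-miR-139-5p: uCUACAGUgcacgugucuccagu
hsa-miR-708-5p: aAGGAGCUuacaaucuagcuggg
hsa-miR-504-5p: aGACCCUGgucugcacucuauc
hsa-miR-584-5p: uUAUGGUUugccugggacugag
hsa-miR-335-5p: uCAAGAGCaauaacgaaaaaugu
hsa-miR-148a-3p: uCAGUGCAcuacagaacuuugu
hsa-miR-224-5p: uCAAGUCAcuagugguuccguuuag
hsa-miR-126-3p: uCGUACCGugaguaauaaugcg
Of the 28 miRNA genes whose 6 libraries in one pair lay above all 6 of the other by at least 1.5-fold, 27 matched the RefSeq table, and no seed was shared between genes among the arms listed for them. The 27 matched genes thus did not form a seed family among themselves. Other tested genes share a seed with some of them. A hairpin sequence was found for 219 of the 262 miRNA genes tested, so further genes with a shared seed may be missing here. MIR4725 (seed of miR-504-5p) had 2.01 CPM in experiments 3 and 4 against 0.863 in 5 and 6, and MIR4676 (miR-452-5p) 1.22 against 2.15. MIR330 (miR-326) and MIR550A3 (miR-200c-5p) had log2 differences of -0.24 and -0.03. MIR29B1, MIR99A, MIR148B and MIR152 are given below. The mature miR-125b-5p is encoded at 2 loci, so reads of it map to both and were not counted, and the counts of MIR125B1 hold only reads that are unique to that locus. The MIR125B1 difference given below is thus not a measure of the printed arm.

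The C/D snoRNAs that differed most were copies of SNORD115, a tandem array in the imprinted 15q11 region. The sequences of 3 copies, from GENCODE 29 transcripts, show how little they differ, and SNORD116-2, of a neighbouring array, stands below them for contrast; capitals mark the C box motif TGATGA nearest the 5′ end and the D box motif CTGA nearest the 3′ end.
SNORD115-15: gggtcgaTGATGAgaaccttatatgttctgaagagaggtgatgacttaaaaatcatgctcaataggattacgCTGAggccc
SNORD115-14: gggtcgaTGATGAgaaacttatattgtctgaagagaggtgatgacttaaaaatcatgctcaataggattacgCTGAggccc
SNORD115-40: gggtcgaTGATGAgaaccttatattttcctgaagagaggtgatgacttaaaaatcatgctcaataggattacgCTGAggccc
SNORD116-2: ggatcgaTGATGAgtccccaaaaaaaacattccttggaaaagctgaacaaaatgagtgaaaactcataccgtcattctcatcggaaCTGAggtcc
The 6 SNORD115 copies without overlap between the pairs were 96.3% to 98.8% identical to each other. Of the 48 copies with a GENCODE sequence, 39 had a sequence found in no other copy, and this held for all 10 copies with enough counts to be tested. Reads that do not cover a base that tells copies apart map to several copies and were left uncounted.

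Genes were kept at a mean count of at least 10 over the 12 libraries, which left 2789 genes. Values are CPM scaled by TMM, a normalization that assumes most genes do not differ. A gene was called separated when, in each of the 3 treatments, both libraries of one pair lay above both of the other. By this rule 170 genes (6.1% of those tested) were higher in experiments 3 and 4, and 113 (4.05%) were higher in 5 and 6. A stricter rule asked that all 6 libraries of one pair lie above all 6 of the other and that the fitted difference be at least 1.5-fold; 88 genes (3.16%) met it as higher in experiments 3 and 4 and 39 (1.4%) as higher in 5 and 6. As log2 differences, experiments 3 and 4 minus 5 and 6, 1254 of the 2789 genes (45%) lay above 0. These percentages describe a contrast that was chosen from the same counts, and nothing is read from them. They are the shares over all genes for the counts by class and list below. Of the separated genes, 60.1% were higher in experiments 3 and 4 with TMM and 70.5% with scaling by library size, while among genes with a mean count of at least 50 the share was 43.6% (71 against 92 genes). Just inside the fold limit lay MIR200C (1.504-fold) and RNR2 (1.515-fold), and just outside it MIR151A and PLXNB3 (both 1.486-fold).

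The makeup of the libraries differed by class. miRNA genes held 30.8% to 41.2% of counts in experiments 3 and 4 (mean 36.9% ± 3.53, SD, n = 6) and 41.8% to 48.7% in 5 and 6 (44.6% ± 2.72), without overlap. C/D snoRNAs held the converse share, 59.0% ± 3.95 against 51.9% ± 2.88 (SD, n = 6), and the pairs overlapped. Within a treatment they overlapped only in the GKT136901 + LPL:VLDL group, where experiment 4 had 54.1% and experiment 6 had 54.6%. These shares sum to 100% over all classes, so that a higher share of one class lowers that of another. Both differences were smaller without the 5 most abundant genes, which were taken out of the total as well. The miRNA share then differed by -2.67 percentage points in place of -7.65 and the C/D snoRNA share by 2.33 in place of 7.08. As the total changed too, the smaller C/D snoRNA difference does not show that few C/D snoRNAs held it. Among miRNA genes of at least 20000 CPM on average, MIR148A (mean 121600 CPM) had a log2 difference of -0.84. MIRLET7I had -0.25, MIR30E -0.13 and MIRLET7G 0.10, and the median over the 262 miRNA genes tested was -0.15. The miRNA share is thus not a measure of most miRNA genes, and the part of MIR148A in it was not tested. Without the LPL:VLDL library of experiment 3, the mean over the other 5 libraries of its pair was 38.15% ± 2.06 (SD, n = 5) for miRNA, still without overlap, and 57.65% ± 2.33 for C/D snoRNA.

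Smaller classes differed in the same direction as the C/D snoRNAs. Nuclear tRNA genes took 0.819% to 1.12% of counts in experiments 3 and 4 and 0.658% to 0.786% in 5 and 6. Mitochondrial rRNA took 0.110% ± 0.0115 against 0.0702% ± 0.0104 (SD, n = 6), and H/ACA snoRNA 0.163% ± 0.0255 against 0.109% ± 0.016, both without overlap. The group of 7SK, 7SL, RNase P and RNase MRP RNAs took 0.0387% to 0.0452% against 0.0304% to 0.0359%.

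The Y RNA share differed the other way, with 0.546% to 0.797% of counts in experiments 3 and 4 and 0.759% to 1.05% in 5 and 6. The pairs did not overlap in 2 of the 3 treatments. In experiment 2 Y RNAs held 3.12% to 3.25%. Of 4 Y RNA genes tested, 2 lay above 0 and 2 were separated as higher in experiments 5 and 6. RNY1 ranged from 5067 to 6637 CPM (median 5930) in experiments 3 and 4 and from 6605 to 9124 (median 8041) in 5 and 6, with a log2 difference of -0.46 and a slight overlap. Fragments of mRNA held about the same share in both pairs, 0.936% ± 0.108 and 0.972% ± 0.0759 (SD, n = 6).

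The lncRNA share was 0.763% ± 0.185 in experiments 3 and 4 and 0.395% ± 0.0329 in 5 and 6 (SD, n = 6), and it rested on few genes. NR2F2-AS1, antisense to the nuclear receptor gene NR2F2, ranged from 3686 to 6594 CPM (median 4199) in experiments 3 and 4 and from 1538 to 2125 (median 1839) in 5 and 6. The difference was 2.64-fold, and the pairs did not overlap. MIR548A1HG, a host transcript of miRNA genes, had a log2 difference of 0.85. LOC105371225 had 1850 ± 345.5 CPM against 1380 ± 234.6 (SD, n = 6). Of 78 lncRNA genes tested, 36 lay above 0 and the median log2 difference was -0.02, against 45% and -0.08 over all genes. The counting ignored strand, so reads from a lncRNA and from a transcript opposite it cannot be told apart.

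**Figure D2:**
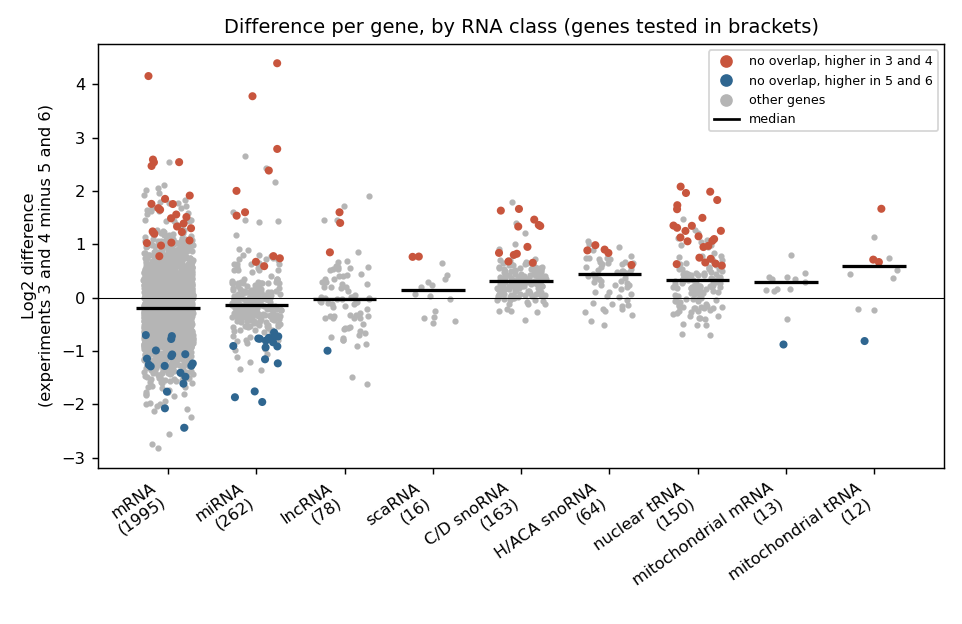
Log2 difference of each tested gene, experiments 3 and 4 minus 5 and 6, by RNA class, with the number of genes in brackets; black bars are medians and coloured points are genes whose pairs do not overlap and differ by at least 1.5-fold. The medians of C/D snoRNA (0.31), H/ACA snoRNA (0.45) and nuclear tRNA (0.32) lie above 0, those of miRNA (-0.15) and mRNA (-0.20) below it.

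Among miRNAs, 25 of 262 genes tested were separated as higher in experiments 3 and 4 and 43 as higher in 5 and 6, with 11 and 17 meeting the stricter rule. For separation these are 9.54% and 16.4%, against 6.1% and 4.05% over all genes. The median log2 difference was -0.15, against -0.08 over all genes. The miRNAs with the largest differences were higher in experiments 3 and 4.

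MIR100, whose mature miRNA is known to target MTOR, lies on chromosome 11 (chr11:122152229-122152308, GRCh38.p14) within its host lncRNA gene MIR100HG. Its lowest, median and highest values were 915.4, 1047 and 1155 CPM in experiments 3 and 4 and 61.9, 75.9 and 91.3 CPM in 5 and 6. The mean was 1046 ± 90.2 against 76.6 ± 9.82 CPM (SD, n = 6), a 13.7-fold difference. No library of one pair came near the other, and the level in experiment 2 was higher still, at 2966 to 3714 CPM.

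MIR125B1, a gene of the lin-4 related miR-125 family at chr11:122099757-122099844, shares the locus with MIR100. It had 9.03 to 17.9 CPM in experiments 3 and 4 and 0.233 to 1.23 CPM in 5 and 6, from 776 and 36 counts in all. The log2 difference was 4.39, the largest of the genes tested, and without replicate 4 (experiment 5) it was 5.02. The third miRNA gene of that locus, MIRLET7A2, had 4466 and 4934 counts in all in the respective pairs, so the counts at the locus did not differ as a unit. The MIRLET7A2 counts hold only reads that map to that gene alone, and any reads shared with other loci were not compared. The host MIR100HG had 0 and 2 counts. MIR99A, whose mature miRNA has the seed of miR-100-5p, had 16.9 ± 3.83 CPM against 15.9 ± 4.34 (SD, n = 6).

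MIR139, a miRNA in an intron of the phosphodiesterase gene PDE2A (chr11:72615063-72615130), had 86.1, 132 and 154 CPM as its lowest, median and highest values in experiments 3 and 4. In 5 and 6 they were 17.8, 23.8 and 32.5 CPM, a 5.21-fold difference. Experiment 2 lay between, at 31.5 to 44.9 CPM.

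MIR708, in an intron of TENM4 (chr11:79402022-79402109), had 13.7 ± 2.06 CPM against 2.09 ± 1.14 (SD, n = 6), a log2 difference of 2.79. MIR504, in an intron of FGF13 on the X chromosome, had 31.0 to 52.7 CPM against 7.22 to 23.5. MIR6503 had 66.0 to 90.0 CPM against 17.9 to 31.7, and MIR184 7.82 to 20.4 against 1.38 to 6.62. The highest library of experiments 5 and 6 for MIR504 was LPL:VLDL in experiment 6.

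The remaining 4 miRNA genes of the stricter rule in this direction were MIR215, MIR193A, MIR29A and MIR200C, with log2 differences of 0.78, 0.74, 0.67 and 0.59. MIR29A, which is known to target collagen mRNAs, ranged from 1452 to 2029 CPM in experiments 3 and 4 and from 985.8 to 1229 in 5 and 6. MIR29B1, beside it on chromosome 7 and with the same seed, had a log2 difference of 0.90, with overlapping pairs; miR-29b-3p is also encoded at a second locus.

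Of the 17 miRNA genes of the stricter rule that were higher in experiments 5 and 6, MIR148A was by far the most abundant. It is known to target the LDL receptor mRNA and maps to chr7:25949919-25949986. Its lowest, median and highest values were 76860, 87730 and 93850 CPM in experiments 3 and 4 and 136400, 154900 and 180300 CPM in 5 and 6. The mean was 1.79-fold higher in 5 and 6. MIR148B and MIR152, whose mature miRNAs have the same seed, had log2 differences of 0.07 and -0.04, so the difference was not shared by the seed family.

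MIR584, in the gene SH3TC2 (chr5:149062313-149062409), had 13.5, 16.0 and 19.1 CPM as its lowest, median and highest values in experiments 3 and 4 and 48.3, 54.2 and 62.4 CPM in 5 and 6. The difference was 3.39-fold, and experiment 2 lay below both pairs at 6.57 to 10.9 CPM. MIR335, in the imprinted gene MEST, had 6.83 to 13.4 CPM against 14.5 to 22.

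MIR224 and MIR452, neighbours in the GABRE gene on the X chromosome, were both higher in experiments 5 and 6, with log2 differences of -0.81 and -1.23. MIR126, the endothelial miRNA of the EGFL7 gene, had 756.5 to 845.2 CPM in experiments 3 and 4 and 1094 to 1473 in 5 and 6. The summed level of the list of blood, liver, muscle and endothelial miRNAs, most of it MIR126, was 1060 to 1388 CPM against 1684 to 2107, and 6 of its 12 members had no count. Of its 4 tested members 1 lay above 0, MIR133A2, with a log2 difference of 2.44 and overlapping pairs. The part of this list in the differences was not tested.

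MIR592 and MIR10525, both under 7 CPM in every library, had log2 differences of -1.96 and -1.87. The other 9 genes, among them MIR6842, MIR1301, MIR455, MIR345 and MIR326, differed by -0.65 to -1.16. The 3 genes of the miR-183 cluster were all separated as higher in experiments 5 and 6, with log2 differences of -0.31 to -0.36. Among the most abundant miRNAs, MIRLET7I had a log2 difference of -0.25, MIR30E -0.13 and MIRLET7G 0.10, the last with a sign that changed in some settings.

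For the miRNA host genes, the mRNA fragments were too few to compare. PDE2A had 12 counts in all 12 libraries, TENM4 had 1, SH3TC2 had 3, EGFL7 had 11, and GABRE had none. GC content gave no large contrast. The median over hairpins was 54.4% for the miRNA genes higher in experiments 3 and 4, 53.3% for those higher in 5 and 6, and 51.2% over the 219 of 262 tested genes with a sequence.

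**Figure D3:**
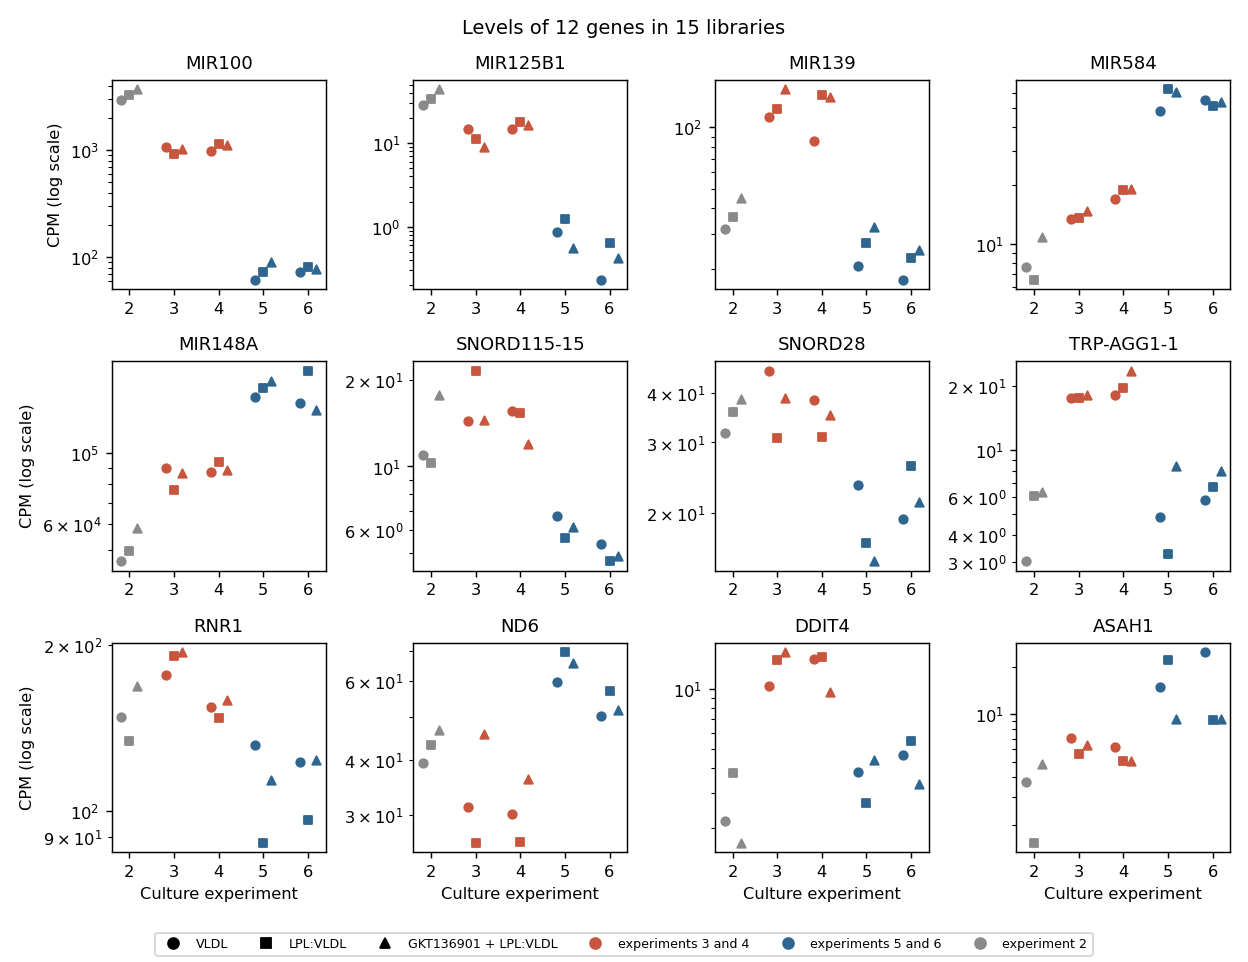
CPM of 12 genes in 15 libraries on log axes, by culture experiment, with colours for the pair and shapes for the treatment. MIR100, MIR125B1 and MIR139 are higher in experiments 3 and 4, MIR584, MIR148A, ND6 and ASAH1 higher in 5 and 6, and experiment 2 takes a different position from gene to gene.

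The C/D snoRNAs lay largely on one side. Over all genes, 45% lay above 0 and 6.1% were separated as higher in experiments 3 and 4. Of 163 C/D snoRNAs tested, 146 lay above 0 with a median log2 difference of 0.31. Of the 163, 40 were separated as higher in experiments 3 and 4 and 1 as higher in 5 and 6. The stricter rule was met by 12 and 0. Without the LPL:VLDL library of experiment 3 the median was 0.21, 135 lay above 0 and 12 again met the stricter rule. The most abundant C/D snoRNAs differed less. SNORD81, SNORD63, SNORD26 and SNORD49A had log2 differences of 0.17, 0.21, 0.29 and 0.19. SNORD50A had 68870 ± 11930 CPM against 66130 ± 6056 (SD, n = 6), and its log2 difference and those of SNORD44, SNORD74 and SNORD101 (0.05, 0.06, 0.03 and -0.04) changed sign in some settings.

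All 10 tested SNORD115 copies lay above 0 (median log2 difference 1.38), 7 were separated and 6 met the stricter rule; without the LPL:VLDL library of experiment 3 the median was 1.26, and 7 and 6 copies again met these rules. SNORD115-15, at chr15:25197576-25197656, had 11.9, 14.9 and 21.5 CPM as its lowest, median and highest values in experiments 3 and 4. In 5 and 6 the values were 4.68, 5.49 and 6.72 CPM, a 2.75-fold difference. All 6 libraries of experiments 3 and 4 were above those of 5 and 6, and the LPL:VLDL library of experiment 3 was the highest. The copies are near-identical, so the level of any single copy is uncertain. SNHG14, the host transcript of the array, had 64 and 74 counts in the respective pairs.

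The 18 tested copies of SNORD116, a second array of 15q11 associated with Prader-Willi syndrome, all lay above 0 as well (median 0.57, and 0.40 without the LPL:VLDL library of experiment 3), with 3 separated and SNORD116-2 under the stricter rule. SNORD116-2 had 227 CPM in the LPL:VLDL library of experiment 3, 100.5 to 108.5 CPM in the other 5 of its pair and 40.2 to 88.7 in experiments 5 and 6. Its log2 difference was 0.95, and 0.70 without that library.

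Other C/D snoRNAs of the stricter rule were SNORD28, from the SNHG1 host gene (30.8 to 45.4 CPM against 15.1 to 26.2), SNORD53 (50.6 to 95.9 against 26.4 to 49.8), SNORD4A, SNORD17 and SNORD47, from the GAS5 host gene (771.9 to 1412 against 481.8 to 679.7). By host gene, 9 of 10 GAS5-hosted snoRNAs, 7 of 7 tested from SNHG1 and 4 of 4 from RPL13A lay above 0, with medians of 0.36, 0.32 and 0.40. Over all C/D snoRNAs 146 of 163 lay above 0 with a median of 0.31, so nothing particular to a host gene is read from these values. The 4 RPL13A-hosted snoRNAs were all separated as higher in experiments 3 and 4. Among them, SNORD35A had a log2 difference of 0.57, and 0.46 without the LPL:VLDL library of experiment 3. The host medians were not taken without that library. The median GC content was 42.7% for the 11 of 12 C/D snoRNAs with a sequence and 42.8% over the 136 of 163 tested.

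H/ACA snoRNAs had the same direction, 52 of 64 above 0 with a median of 0.45, and 5 met the stricter rule, all higher in experiments 3 and 4. SNORA68 had 15.6 to 33.4 CPM against 8.22 to 13.7, and SNORA62 had 77.6 to 170 against 47.5 to 73.7. Without the LPL:VLDL library of experiment 3 the median was 0.36 and 7 met the rule. The scaRNAs SCARNA4 and SCARNA8, guides for spliceosomal RNA, met it too, with log2 differences of 0.77 and 0.76. The scaRNAs as a class were mixed: of 16 tested, 10 lay above 0 (median 0.13), 4 were separated as higher in experiments 3 and 4 and 3 as higher in 5 and 6. Without the LPL:VLDL library of experiment 3 their median was 0.04 and 8 lay above 0.

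Of 150 nuclear tRNA genes tested, 114 lay above 0, against 1254 of 2789 over all genes. The stricter rule was met by 25, all higher in experiments 3 and 4, against 88 of 2789 over all genes. Nuclear tRNA genes occur in many copies that share sequence, so the level of any one copy is uncertain. TRP-AGG1-1, a proline tRNA gene, had 17.6, 18.1 and 23.5 CPM as its lowest, median and highest values in experiments 3 and 4 and 3.27, 6.26 and 8.41 CPM in 5 and 6, a 3.15-fold difference.

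By isotype, all 8 tested cysteine tRNA genes lay above 0 (median 1.23), 4 of them under the stricter rule, among them TRC-GCA6-1 at 13.2 to 17.9 CPM against 2.56 to 6.94. Of 5 tyrosine tRNA genes, 4 met the stricter rule and 1 was separated the other way. Of those 4, the 3 TRY-GTA5 genes of chromosome 14 lie within 100 kb of each other. Valine tRNA genes were mixed, 6 above and 6 below 0. TRV-CAC1-4, the most abundant tRNA gene of the stricter rule, had 2237 to 3105 CPM against 1427 to 2056. In experiment 2 nuclear tRNA genes held 0.47% to 0.519% of counts, below both pairs.

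Mitochondrial genes are given by the strand of their annotation, and a difference between the strands was not tested. Of 23 tested genes on the plus strand, which holds both rRNAs and most mRNAs and tRNAs, 20 lay above 0 with a median log2 difference of 0.38. Of these, 8 were separated as higher in experiments 3 and 4 and 0 as higher in 5 and 6. RNR1, the small rRNA, had 147, 168 and 194 CPM as its lowest, median and highest values in experiments 3 and 4 and 87.7, 118 and 132 CPM in 5 and 6. RNR2, the large rRNA, had 777.1 to 1028 CPM against 497.8 to 715.8. Without the LPL:VLDL library of experiment 3 the median of the 2 rRNAs was 0.54, under the 1.5-fold limit, while both stayed separated.

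Of the 4 tested genes on the minus strand, 2 met the stricter rule as higher in experiments 5 and 6. ND6, the only complex I subunit encoded on that strand, had 26, 30.8 and 45.7 CPM as its lowest, median and highest values in experiments 3 and 4 and 50.2, 58.5 and 69.6 CPM in 5 and 6. The alanine tRNA gene TRNA had a log2 difference of -0.82. The tyrosine tRNA gene TRNY on the same strand was separated the other way (0.74). The counting ignored strand, so an ND6 count may come from RNA of either strand.

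Among tRNAs of the plus strand, TRNT (threonine) had 7.37 to 14.5 CPM against 2.13 to 4.56. TRNL1 and TRNH, for leucine and histidine, had log2 differences of 0.71 and 0.67. COX2 on the plus strand lay below 0, at -0.40, with overlapping pairs.

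Counts on mRNAs are fragments, few per gene. Of 1995 tested, 758 lay above 0 (median -0.20), 44 and 59 were separated as higher in experiments 3 and 4 and in 5 and 6, and 25 and 19 met the stricter rule. These shares, 2.21% and 2.96% for separation, lie below those over all genes.

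The 4 mRNAs named first have a mean of at least 5 CPM and had the largest differences towards experiments 3 and 4. TFPI2, a serine protease inhibitor, had 5.45, 9.06 and 14.9 CPM as its lowest, median and highest values in experiments 3 and 4 and 1.30, 3.15 and 4.04 CPM in 5 and 6. DDIT4, a stress-induced inhibitor of mTORC1, had 9.64 to 15.2 CPM against 2.65 to 5.44, a 3.20-fold difference, with 1.68 to 3.75 CPM in experiment 2. RND3 had 12 to 15 CPM against 2.55 to 7.45. SLC7A5, a transporter of large neutral amino acids, had 6.15 to 13.4 CPM against 2.82 to 4.59.

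Several rarer or more abundant mRNAs in this direction were chosen after their values were seen. IL1B, an inflammatory cytokine of myeloid cells, had 48.5, 55.2 and 71.1 CPM as its lowest, median and highest values in experiments 3 and 4 and 19.5, 25.3 and 26.7 CPM in 5 and 6. SOD2, the mitochondrial superoxide dismutase, had 22.9 to 27.7 CPM against 9.33 to 19.7. AARS1, the alanyl-tRNA synthetase, had a log2 difference of 2.54, from 158 counts in experiments 3 and 4 and 27 in 5 and 6. VLDLR, the VLDL receptor, had 2.63 to 4.01 CPM against 0.336 to 1.86. ITGA1, an integrin subunit, had 152 counts against 12.

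Towards experiments 5 and 6, MBP had 1.13 to 4.28 CPM against 5.69 to 10.1, where MBP is myelin basic protein, also transcribed from an upstream start in blood cells. ASAH1, the lysosomal acid ceramidase, had 5.02, 5.93 and 7.08 CPM as its lowest, median and highest values in experiments 3 and 4 and 9.23, 12 and 24.6 CPM in 5 and 6. CREBBP, a histone acetyltransferase, had 3.19 to 6.15 CPM against 6.52 to 15.9, and TNS3, a focal adhesion protein, 3.86 to 5.22 against 6.70 to 12.9.

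Members of the mRNA lists were few among the tested genes. Of all genes tested, 45% lay above 0. The list of SREBP targets, genes of sterol synthesis and uptake, had 3 of 8 above 0 (median -0.09). NRF2 targets, antioxidant genes, had 1 of 4 (-0.24), and PPAR and lipid droplet genes 1 of 3 (-0.92). The last list ran from -2.03 to 1.97, so its members went both ways. Its lowest was FABP4, a fatty acid binding protein, with overlapping pairs. Of 6 tested myeloid mRNAs 1 lay above 0 (median -0.27), and none was separated.

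**Figure D4:**
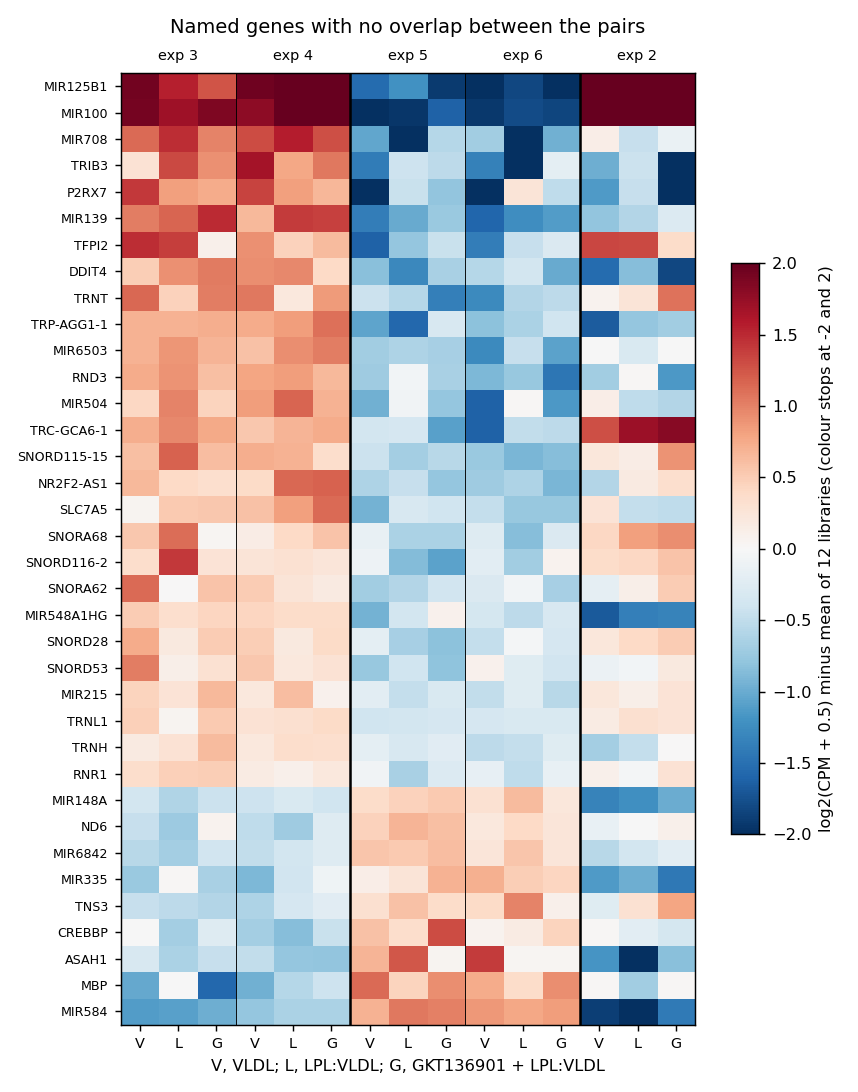
Levels of the 36 named genes without overlap between the pairs, as log2(CPM + 0.5) minus the mean of the 12 libraries of experiments 3 to 6, by experiment and treatment; the colour scale stops at -2 and 2. The upper 27 genes are higher in experiments 3 and 4 and the lower 9 higher in 5 and 6, while experiment 2 at the right follows neither pair throughout.

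Genes of the stricter rule lay together in few places. Within windows of 100 kb, 20 of the 127 genes formed 5 clusters, 4 of which had 1 direction. They were MIR125B1 with MIR100, 3 TRY-GTA5 genes, 6 SNORD115 copies, MIR224 with MIR452, and the mitochondrial genome, where 7 genes took both directions.

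Experiment 2, which did not enter the rule, was placed beside the pairs. Of the 88 genes higher in experiments 3 and 4, its mean lay above both pairs in 16, between them in 50 and below both in 22, and it was nearer to experiments 3 and 4 in 44. Of the 39 genes higher in 5 and 6, it was nearer to experiments 3 and 4 in 32. The same counts were not made over all genes tested, so nothing particular to these genes is read from them. Its 3 libraries also share 1 experiment, and they stand apart on the first component.

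Treatment effects within each pair were examined by the two-sided quasi-likelihood F test of edgeR, with Benjamini-Hochberg adjustment over the 2789 genes, in 1 model of 6 cells with 2 libraries each. A call is an adjusted p under 0.05. For LPL:VLDL against VLDL, edgeR called 0 genes in experiments 3 and 4 (0%; 143 had an unadjusted p under 0.05), while DESeq2 called 3. In experiments 5 and 6 edgeR called 3 (0.108%; 196 had an unadjusted p under 0.05) and DESeq2 called 4, and all 3 of edgeR were higher with LPL:VLDL.

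The called genes were MIR132 and MIR212, neighbours on chromosome 17 that are induced through CREB, and P2RX7, an ATP-gated channel of macrophages. MIR132 had 112 and 95.8 CPM with VLDL and 190 and 206 CPM with LPL:VLDL in experiments 5 and 6, both libraries above both, a log2 difference of 0.93 (SE 0.172, edgeR adjusted p = 0.0343). MIR212 had 79.6 and 73.8 CPM against 132 and 171, a log2 difference of 0.98 (SE 0.19, edgeR adjusted p = 0.0373). P2RX7 had 0 counts in both VLDL libraries and 11 and 17 with LPL:VLDL, at least 4.85-fold higher against a floor of 3 counts per library (edgeR adjusted p = 0.0343).

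In experiments 3 and 4 the log2 difference of MIR132 was 0.71 (SE 0.17), from 202 and 195 CPM to 322 and 326, with an edgeR adjusted p of 0.307 and a DESeq2 adjusted p of 0.0368. That of MIR212 was 0.54 (SE 0.187, edgeR adjusted p = 0.696). The difference between the pairs in this response was -0.22 (SE 0.24) for MIR132 and -0.44 (SE 0.266) for MIR212, edgeR adjusted p 0.998 and 0.852, so a difference in response was not shown.

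The calls in experiments 5 and 6 were fragile. Over 21 other edgeR settings the adjusted p of MIR132 ran from 0.0119 to 0.364 and it was called in 8. Its log2 difference stayed between 0.78 and 1.09. With all libraries DESeq2 called MIR132, MIR212, P2RX7 and MIR504 (DESeq2 adjusted p of 0.000117, 0.000567, 0.0462 and 0.0101). DESeq2 was not run with libraries left out. No gene was called without any 1 of the 4 VLDL libraries, without the LPL:VLDL library of experiment 6, or without the GKT136901 + LPL:VLDL library of experiment 3 or 4, and 1 was called without the LPL:VLDL library of experiment 5. With the experiment as a replicate block edgeR called MIR504 as well (log2 difference 1.30, SE 0.252, edgeR adjusted p = 0.0393, against 0.0782 without the block). MIR504 had 11.6 and 7.22 CPM with VLDL and 22.1 and 23.5 with LPL:VLDL in experiments 5 and 6.

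For GKT136901 + LPL:VLDL against LPL:VLDL, edgeR called 0 genes in experiments 3 and 4 (0%; 150 at an unadjusted p under 0.05) and 0 in 5 and 6 (0%; 154), and DESeq2 called 0 in each. MIR132 had 184.5 and 217 CPM with the inhibitor in experiments 3 and 4, a log2 difference of -0.69 (SE 0.17, edgeR adjusted p = 0.386), and both libraries lay below the LPL:VLDL libraries. In experiments 5 and 6 it was -0.25 (SE 0.17, edgeR adjusted p = 0.94).

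No gene responded differently in the pairs at the threshold. The interaction was called for 0 genes (0%) in either treatment contrast by edgeR, with 190 and 164 at an unadjusted p under 0.05, and for 0 by DESeq2. The lowest p for LPL:VLDL against VLDL belonged to P2RX7 (edgeR adjusted p = 0.112) and SCARNA20 (0.258), and for the inhibitor to SCARNA20 and MIR708 (both edgeR adjusted p = 0.472). P2RX7 had 5.40 and 5.15 CPM with VLDL and 3.42 and 3.41 with LPL:VLDL in experiments 3 and 4. SCARNA20, a guide RNA of Cajal bodies, had 701 CPM in the LPL:VLDL library of experiment 3 and 146 to 224 CPM in the other 5 of its pair. Its log2 difference between the pairs was 0.35, and -0.04 without that library.

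MIR708 had 2.28 and 3.03 CPM with VLDL, 0.919 and 0.506 with LPL:VLDL and 3.36 and 2.45 with the inhibitor in experiments 5 and 6. In experiments 3 and 4 the respective values were 12.1 and 13.7, 15.4 and 16.5, and 10.9 and 13.6 CPM. The LPL:VLDL libraries lay below those with VLDL in experiments 5 and 6, from 9 and 4 counts, and above them in 3 and 4, and the edgeR adjusted p of this difference was 0.396.

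One library decided the count of calls. Without the LPL:VLDL library of experiment 4, its partner of experiment 3 alone stood for that cell, assumed to vary like the other groups, and 27 genes were called for LPL:VLDL against VLDL in experiments 3 and 4, 33 for the inhibitor, and 28 and 24 for the interactions. Of the 27, 17 were C/D snoRNAs and 4 H/ACA snoRNAs, all higher in that library, which is the one that stands apart in its C/D snoRNA share. Without the library of experiment 3 no such calls appeared.

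**Figure D5:**
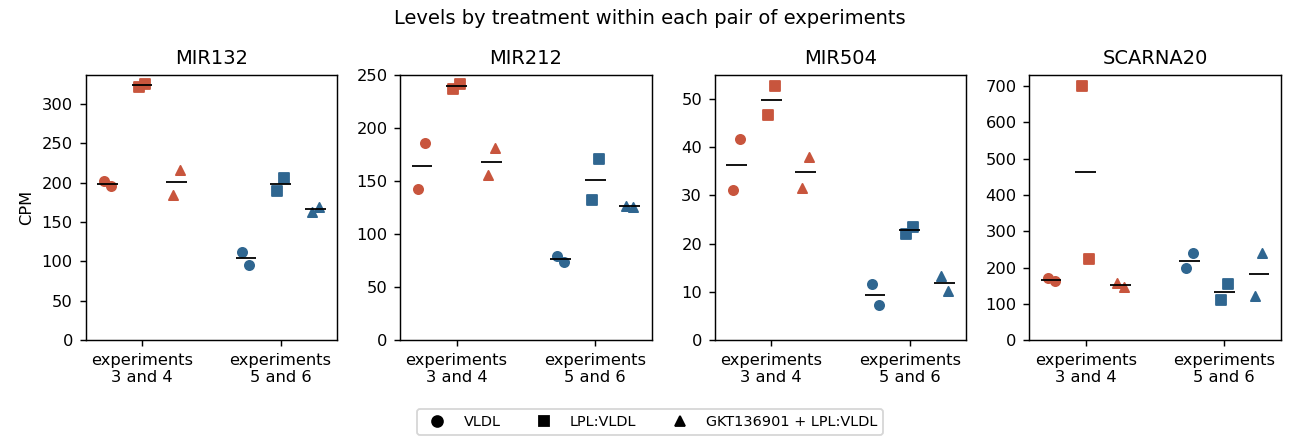
CPM of MIR132, MIR212, MIR504 and SCARNA20 by treatment (shapes) within each pair of experiments (colours); each point is a library and the bar the mean of 2. MIR132 and MIR212 are higher with LPL:VLDL than with VLDL in both pairs, and the LPL:VLDL library of experiment 3 stands at 701 CPM for SCARNA20.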

How the data were processed

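The deposited file is a table of raw counts, 1 row a gene and 1 column a library, which the authors did not normalize. Per the file headers, featureCounts 2.0.6 counted reads over exons by gene against a RefSeq GRCh38.p14 annotation, without options on strand, overlaps or multiple mapping, so reads that map to several loci were not counted. Per the submitters' processing notes, the tools included fastp 0.24.0 and STAR 2.7.11b with hg38; DESeq2 1.46, edgeR 4.4.2 and R 4.4.2 are also listed, without their use. Of 50037 genes listed, 49658 matched a RefSeq biotype, and genes without one held 0.00315% of counts.

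The members, gene lists, rules and tests were chosen with earlier results of these data known. Genes with a mean of at least 10 counts over the 12 libraries (2789 genes, 99.583% of counts) were scaled by TMM (factors 0.865 to 1.10). Log2 differences between the pairs came from a negative binomial fit with treatment as a factor, without a test. Treatment contrasts used edgeR's quasi-likelihood test (edgeR 4.0.16, R 4.3.3) with 6 residual degrees of freedom; DESeq2 1.42.0 was an alternative. The procedures were tested on simulated data. The labels do not say whether experiments were separate passages, so the spread behind each p-value may be technical. The 2 libraries of a cell always differed by more than counting error (chi-square divided by its degrees of freedom, 13.6 to 102), and none was counted as a repeat.

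By the labels, libraries with the same replicate number share a batch (replicates 2 to 5 are experiments 3 to 6), so numbers pair the libraries. Deviations from cell means of the 12 same-experiment pairs correlated at r = -0.031 to 0.0203 (median -0.00972). With 2 libraries in a cell their deviations are opposite, so both experiments of a pair give the same correlations. The 12 values are therefore not independent. Principal components used log2 CPM with a prior count of 2 over 3047 genes. Marker sums are CPM on total counts, with no TMM factor.

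Named are, by class and direction, the genes of the stricter rule with the largest log2 difference at a mean of at least 10 CPM (5 for mRNA and lncRNA), 4 for miRNA, C/D snoRNA and mRNA and 2 for the other classes. Also named are every gene of at least 20000 CPM on average and the 2 genes of lowest p in each interaction. Of each of 37 lists (33 with a tested member), the member that differed most was picked and counts as named, though only some are described above. Further members of the stricter rule, the called genes, host genes, genome clusters, the SNORD and tRNA groups beyond the lists and the strands of the mitochondrial genome were picked after their values were seen. One list of mRNAs is not reported here.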

Additional observations from a re-analysis of the deposited data

Results flagged for a closer look

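In 166 sets of 6 libraries (1 pair of experiments, named genes and class shares), 13 had 1 library whose distance from the nearest other, divided by the range, exceeded Dixon's critical value, which chance exceeds in about 5% of sets. Of these, 8 were the LPL:VLDL library of experiment 3. It had 701.4 CPM of SCARNA20 (145.9 to 224.2 in the other 5 libraries of its pair), 227 of SNORD116-2 (100.5 to 108.5), 37610 of SNORD101 (21190 to 26960), 43530 of SNORD81 (24200 to 29750), 38.51 of SNORD35A (24.49 to 28.59) and 13.45 of VTRNA1-2 (4.89 to 7.93). It was low for MIR93, with 304.2 CPM (427.7 to 501.5), and for the share of 7SK, 7SL, RNase P and RNase MRP RNAs, with 0.0387% (0.0436% to 0.0452%).

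The GKT136901 + LPL:VLDL library of experiment 3, the shallowest of the 12, had 25.01 CPM of NEAT1 (15.34 to 17.71 in the others) and 281 of TRNH (204.9 to 230.7). That of experiment 4 had 23.49 CPM of TRP-AGG1-1 (17.6 to 19.47), and that of experiment 5 had 15.92 CPM of CREBBP (6.52 to 9.546). The LPL:VLDL library of experiment 6 had 147700 CPM of MIRLET7I (106600 to 121300).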

How the results depend on the processing

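Of the 37 named genes whose pairs overlap, 7 changed sign in at least 1 of 21 settings (SNORD44, SNORD74, SNORD50A, SNORD101, MIRLET7G, SNHG29 and SCARNA20). Scaling by library size gave 198 and 83 separated genes, so that 70.5% were higher in experiments 3 and 4 against 60.1% with TMM, and 0 calls for LPL:VLDL against VLDL in experiments 5 and 6. A mean count of at least 50 left 71 genes separated and 39 without overlap as higher in experiments 3 and 4; at least 3 gave 282 and 143, and 7, 5, 9 and 5 calls for LPL:VLDL and the inhibitor in experiments 3 and 4 and for the interactions. A fold of at least 2 left 56 and 20 genes. DESeq2 called 3 genes for LPL:VLDL in experiments 3 and 4 (MIR132, TRT-AGT1-1 and MIR5010). Without the 5 most abundant genes, the share differences in percentage points were -2.67 for miRNA, 2.33 for C/D snoRNA, 0.0538 for mitochondrial rRNA, -0.517 for Y RNA, 0.542 for lncRNA and -0.231 for mRNA; the cause was not tested. The mRNA difference ran from -0.0763 to 0.00332 when a replicate was left out, changing sign without replicate 4.

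Leaving out replicates or libraries gave 183 to 316 and 135 to 321 separated genes, 93 to 163 and 39 to 137 without overlap. It gave 0 to 27 and 0 to 3 calls for LPL:VLDL in the respective pairs, 0 to 33 and 0 to 0 for the inhibitor, and 0 to 28 and 0 to 24 for the interactions. The high counts belong to the setting without LPL:VLDL replicate 3 (experiment 4). Fewer libraries make separation easier by construction. The replicate block gave 0, 4, 0 and 0 calls and 0 and 0 for the interactions; it changed no call but that of MIR504. Genes of a few counts per library, most mRNAs here, are limited by depth.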
